A study of Rattus norvegicus with 45 samples.

Results

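Gene expression in the hippocampus was compared with that in the frontal cortex of 5 vehicle-treated rats. The 10 arrays used, of 45 in the series, were chosen by the region and the treatment in their titles, and the animal numbers 32 to 36 in the labels joined the hippocampus and the frontal cortex of each rat, here called rat 1 to rat 5. In the study, male Sprague-Dawley (SD) rats carried subcutaneous osmotic minipumps, implanted at 9 to 11 weeks of age, that delivered vehicle (dilute acetic acid in water), 0.25 mg/kg/d haloperidol or 5 mg/kg/d risperidone for 21 days, with 5 rats per treatment. RNA of hippocampus, frontal cortex and striatum of every rat was hybridized to Affymetrix rat genome arrays. Haloperidol and risperidone are antipsychotic drugs, and their rats, which share no array with the vehicle rats, were used to measure the same regional difference again. Each array holds RNA of a whole dissected piece of tissue, so a lower level can come from fewer cells of a type or from less RNA per cell, and these cannot be told apart.

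The hippocampus is a folded sheet of simple cortex in which dentate granule cells excite pyramidal neurons of CA3, which excite those of CA1, while CA2 and the hilus lie between these fields. The frontal cortex is layered neocortex, with intratelencephalic neurons in its upper layers and corticothalamic and subcortically projecting neurons in its deep layers. Both regions are built from glutamatergic principal neurons and GABA interneurons, receive serotonin and noradrenaline fibers from the brainstem, and differ in which receptor subtypes their neurons carry. The comparison asks which genes set the regions apart in animals that received no drug.

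The deposited median intensity of an array was 108.3 to 110.4 in the hippocampus and 89.9 to 92.5 in the frontal cortex of vehicle rats, so the 10 arrays were quantile normalized to give them one distribution of log2 intensities, with a median of 6.64. The median log2 difference over the tested probe sets was 0.25 on the deposited scale and 0.005 after this step, and all differences below are relative to it. Of 31099 probe sets, the 18659 whose mean reached the 40th percentile (5.91) entered the tests, and they cover 10216 genes at 1 probe set per gene, the brightest. Levels near 4 lie close to the bottom of the scale, and a fold change against such a level is compressed. The first principal component held 75.5% of the variance and separated the regions. On it the hippocampus of rat 1 stood nearest to the frontal cortex, at 21.2 against 28.9 to 34.1 in the other hippocampi and -31.2 to -28.6 in the frontal cortices. Of the 385 probe sets at least 2-fold lower in the hippocampus, 256 had their highest hippocampal level in rat 1, and counts of called list members that move by over 1.5 times without this rat are given both ways.

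In the hippocampus 1477 of 10216 genes were called higher than in the frontal cortex (14.5%) and 1546 were called lower (15.1%). The counts of called members of each gene list below are to be read beside these shares. A gene was called at an adjusted p under 0.05 (limma with rats as random blocks and Benjamini-Hochberg adjustment over all probe sets) and at least a 1.2-fold difference. At least a 2-fold difference was reached by 191 genes higher (1.87%) and 210 genes lower (2.06%) in the hippocampus. The direction held in each of the 5 rats for 1440 of the genes called higher and 1504 of those called lower. Levels of the hippocampus and the frontal cortex did not overlap for 1305 genes called higher and 1338 called lower, and for 3944 of all genes tested. Without rat 1, 1520 genes were called higher and 1661 lower. The near-even split of calls rests on the common scale: 49.4% of called probe sets were higher in the hippocampus after quantile normalization, and 87.5% on the deposited scale.

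**Figure D1:**
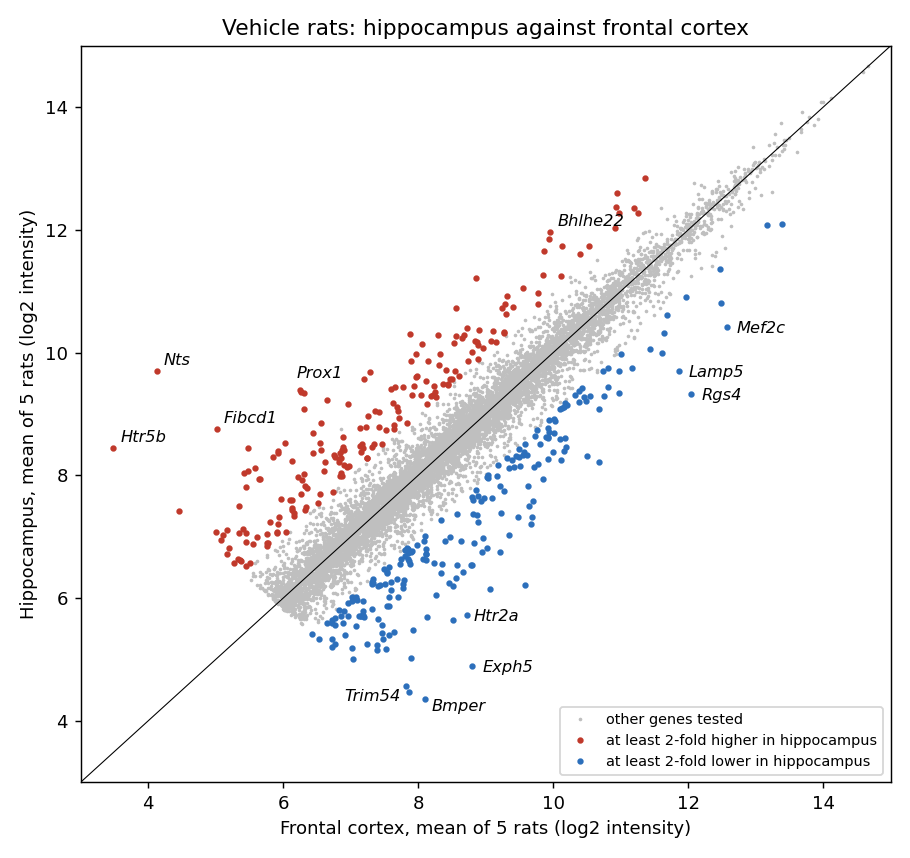
Mean log2 intensity in the hippocampus (y axis) against the frontal cortex (x axis) of 5 vehicle rats for the 10216 genes tested, with the diagonal marking equal levels. Red points mark the 191 genes at least 2-fold higher in the hippocampus and blue points the 210 at least 2-fold lower, and Nts and Htr5b lie farthest above the diagonal and Exph5 and Bmper farthest below it.

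The largest difference was that of Nts, which encodes the neuropeptide neurotensin. Its log2 intensity was 9.62, 9.39, 10.54, 9.51 and 9.48 in the hippocampus of rats 1 to 5, against 4.57, 3.96, 3.97, 4.17 and 3.97 in the frontal cortex. The groups lay far apart, and all frontal cortices were close to the bottom of the scale (log2 difference 5.58, standard error 0.19, 47.7-fold, adjusted p = 7.01e-10, n = 5 rats). Htr5b, a serotonin receptor that is a pseudogene in humans, was nearly as far apart. It read 8.27, 8.34, 8.59, 8.65 and 8.37 in the hippocampus, against 3.58, 3.43, 3.41, 3.43 and 3.57 in the frontal cortex (log2 difference 4.96, standard error 0.07, 31.1-fold, adjusted p = 3.77e-12). Both tissues were narrow in this gene, with SDs of 0.17 and 0.09. Fibcd1, an acetyl-group recognition receptor and a marker of CA1, gave 8.52, 8.88, 8.81, 8.84 and 8.74 in the hippocampus, against 4.66, 5.10, 5.37, 4.99 and 4.98 in the frontal cortex (13.3-fold).

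The next of the 15 largest rises reached from 3.13 to 2.46 on the log2 scale. Rerg, a Ras-like GTPase that slows growth, was 8.78-fold higher, and Gpr161, a receptor of the primary cilium that restrains Hedgehog signaling, was 8.46-fold higher. Prox1, the homeobox factor that keeps dentate granule cells in their fate, was 8.21-fold higher, with 8.93 to 9.58 in the hippocampus against 6.10 to 6.56 in the frontal cortex. The set also held Ntf3, which encodes neurotrophin-3 (6.15-fold), Wnt4, a secreted Wnt ligand (5.96-fold), Pkp2, a plakophilin of desmosomes (5.82-fold), and Htr1a, the serotonin 1A receptor (5.64-fold). Rem2, an activity-regulated GTPase that limits calcium channels, was 5.99-fold higher, and Lrrc10b, Itgbl1, Ctxnd1 and Nkain3 were 7.87, 7.78, 6.81 and 5.52-fold higher. For each of these 15 genes the lowest hippocampus lay above the highest frontal cortex.

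Exph5, which encodes a Rab27 effector of vesicle traffic, was farthest lower in the hippocampus. It read 5.07, 4.98, 4.91, 4.86 and 4.66 in the hippocampus, against 8.91, 8.75, 8.54, 8.79 and 9.03 in the frontal cortex (log2 difference -3.91, standard error 0.09, 15-fold lower, adjusted p = 7.38e-11). Bmper, a secreted modulator of bone morphogenetic proteins, read 4.93, 4.18, 4.00, 4.18 and 4.48 in the hippocampus, against 8.13, 7.95, 8.02, 8.24 and 8.19 in the frontal cortex (13.5-fold lower). Rat 1 was the highest hippocampus for both genes, yet its frontal cortex lay far above it. Trim54, a microtubule-associated ubiquitin ligase best known from muscle, was 10.5-fold lower, Tmem196 10.3-fold and the olfactory receptor gene Olr59 9.54-fold lower. Receptors followed, with Htr2a, the serotonin 2A receptor, 7.95-fold and Adra1b, the alpha-1B adrenergic receptor, 7.29-fold lower. The other genes of the 15 largest falls were Tcerg1l, Rasgef1c, Rgs4, Hs3st2, Fhod3, Car10, Dclk3 and Gypc, lower by between 7.58-fold (Tcerg1l) and 5.39-fold (Gypc).

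Rgs4, which switches off Gq and Gi signaling and is high in neocortex, showed how far rat 1 differed from the others. It read 10.50, 8.51, 8.90, 9.11 and 9.66 in the hippocampus, against 12.11, 11.91, 12.05, 12.02 and 12.13 in the frontal cortex (log2 difference -2.71, standard error 0.26, adjusted p = 3.37e-06). Fhod3, a formin that assembles actin, had 8.03 in the hippocampus of rat 1 and 6.12 to 6.79 in the other hippocampi, against 9.06 to 9.34 in the frontal cortex. The dopamine D1 receptor gene Drd1 read 6.91 in rat 1 and 5.91 to 6.05 in the other hippocampi, against 6.26 to 7.59 in the frontal cortex. What set rat 1 apart was not tested.

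**Figure D2:**
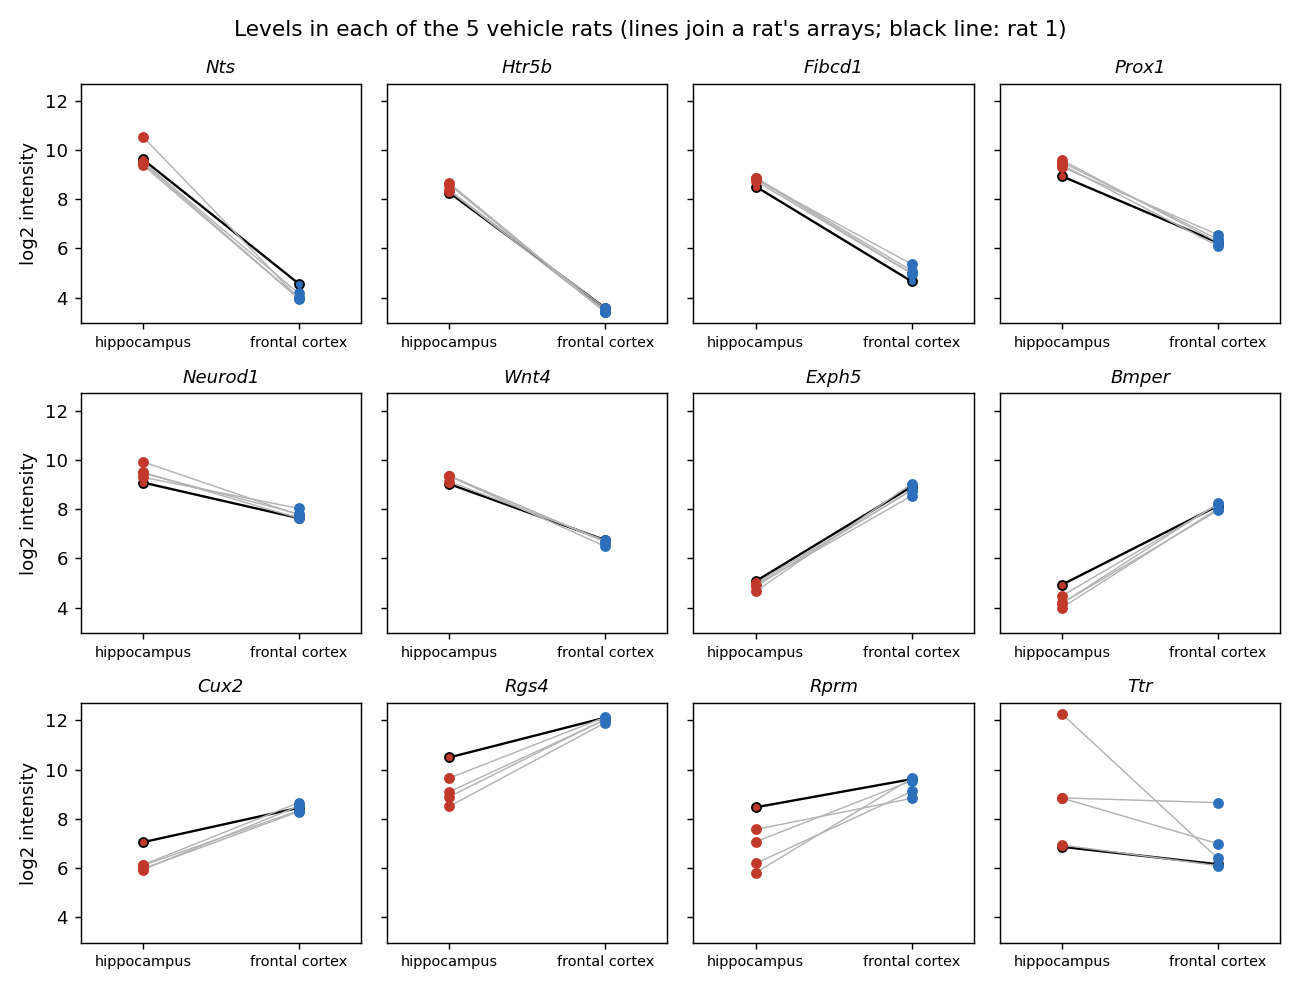
Log2 intensity (y axis) of 12 genes in the hippocampus (red, left) and the frontal cortex (blue, right) of the 5 vehicle rats, with a line joining the arrays of each rat and a black line for rat 1. The hippocampi lie above the frontal cortices for Nts, Htr5b, Fibcd1, Prox1, Neurod1 and Wnt4 and below them for Exph5, Bmper, Cux2, Rgs4 and Rprm, where rat 1 is the highest hippocampus, and Ttr reaches 12.25 in rat 5.

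Of 16 dentate granule cell markers, 13 have a probe set and 12 were tested, and 7 were called higher and none lower in the hippocampus (median log2 difference 0.45, against 0.006 over all genes tested). Neurod1, a proneural transcription factor, read 9.08, 9.49, 9.92, 9.45 and 9.29 in the hippocampus, against 7.63, 7.63, 7.76, 7.80 and 8.02 in the frontal cortex (3.20-fold, adjusted p = 3.51e-07). Pdyn, the prodynorphin gene of mossy fibers, read 9.65, 10.22, 9.66, 10.75 and 10.88 in the hippocampus, against 8.92, 8.29, 8.66, 8.88 and 8.54 in the frontal cortex (2.98-fold, adjusted p = 7.89e-05). Rats 1 and 3 had the lowest hippocampal Pdyn. Sema5a, a guidance molecule, Plk5, a polo-like kinase of neurons, and Rfx3, a ciliary transcription factor, were 2.19, 1.85 and 1.52-fold higher. The calbindin gene Calb1 and the sodium channel gene Scn3a lay lower in the hippocampus with adjusted p = 8.27e-04 and 9.66e-04, but by less than 1.2-fold (log2 difference -0.26 and -0.24). Both passed 1.2-fold without rat 1 or rat 4 and with median centring, and Calb1 also without rat 2 and with cyclic loess. Without rat 1, 7 of the 12 were called higher and 2 lower. In haloperidol rats 7 genes of this list were called higher and 1 lower, and in risperidone rats 7 higher and 3 lower. C1ql3, a synaptic organizer, averaged 10.89 in the hippocampus and 10.81 in the frontal cortex.

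Of 17 CA1 and CA3 pyramidal neuron markers, 11 were tested, and 8 were called higher and 1 lower in the hippocampus (median 1.03). Beside Fibcd1, Bok, an apoptosis regulator enriched in CA3, was 3.17-fold higher, with 9.69 to 10.30 in the hippocampus against 8.27 to 8.38 in the frontal cortex. Grik4, the kainate receptor subunit of mossy fiber synapses, was 2.32-fold higher, and its difference ran only from 1.14 to 1.33 over the rats. Neurod6 (2.31-fold), Pou3f1 (2.16-fold) and Wfs1 (2.04-fold), which encodes wolframin of the endoplasmic reticulum, were higher, as were Nptx1 (1.60-fold), a neuronal pentraxin that clusters AMPA receptors, and Man1a1 (1.29-fold). Mpped1 was 1.3-fold lower (adjusted p = 6.77e-05), a call that ended on the deposited scale and was not made in the rats given either drug. Of 6 tested CA2 and hilar markers of 11 listed, Necab2 (3.26-fold), Amigo2 (1.96-fold), Rgs14 (1.8-fold) and Calb2 (1.33-fold) were higher and Pcp4, which regulates calmodulin, was 1.4-fold lower. Calb2, the calretinin gene of mossy cells and interneurons, was not called in the rats given a drug (log2 difference -0.25 with haloperidol and -0.56 with risperidone), and its call in vehicle rats ended in the fit of all 45 arrays (adjusted p = 0.137).

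Upper layer markers of neocortex lay lower in the hippocampus. Of 19 listed, 13 were tested, and 10 were called lower and 1 higher (median -0.65). Cux2, a homeobox factor of upper layer neurons, read 7.05, 5.94, 5.97, 6.11 and 6.14 in the hippocampus, against 8.45, 8.52, 8.30, 8.34 and 8.66 in the frontal cortex (log2 difference -2.21, standard error 0.17, adjusted p = 4.50e-07). Lamp5, a membrane protein of endosomes in cortical neurons, was 4.47-fold lower, with 9.57 to 9.83 in the hippocampus against 11.64 to 11.94 in the frontal cortex. Stard8 was 3.79-fold, Gucy1a1, a subunit of the nitric oxide receptor, 3.67-fold and Rorb, an orphan receptor of layer 4, 2.15-fold lower. Rasgrf2, a Ras exchange factor of superficial layers, was 1.43-fold higher in the hippocampus (adjusted p = 0.00162), and its groups overlapped.

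Deep layer markers moved in both directions: of 24 listed, 15 were tested, with 4 called higher and 5 lower (median -0.18), and 4 higher and 7 lower without rat 1. Rprm, a p53 target expressed by layer 6 neurons, read 8.47, 6.19, 5.82, 7.07 and 7.57 in the hippocampus, against 9.61, 9.11, 9.65, 9.54 and 8.83 in the frontal cortex (log2 difference -2.32, standard error 0.38, adjusted p = 2.75e-04). The hippocampi spread more widely than the frontal cortices in this gene, with SDs of 1.07 and 0.36. Ldb2 (2.55-fold), Tbr1 (2.14-fold), the T-box factor of layer 6, and Arhgap25 (2.13-fold) were lower in the hippocampus. Bcl11b, a zinc finger factor of subcortically projecting neurons that dentate granule and CA neurons also carry, was 2.83-fold higher, and all 3 of its probe sets were called higher. Nr4a2, a nuclear receptor of the subplate and claustrum, was 1.89-fold higher with overlapping groups (adjusted p = 0.00151, and adjusted p = 0.0781 when all 45 arrays were fitted together). Ccn2, which marks layer 6b, was not called (adjusted p = 0.102) and read 8.73 in the hippocampus of rat 1 and 6.63 to 7.12 in the others, against 6.93 to 8.34 in the frontal cortex. Without rat 1 it was called lower (log2 difference -1.0, adjusted p = 0.00744).

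Of 23 tested transcription factors of the pallium, 10 were called higher and 7 lower in the hippocampus. Bhlhe22, a basic helix-loop-helix factor, was 4.04-fold higher, at 11.73 to 12.12 in the hippocampus against 9.75 to 10.08 in the frontal cortex. Nr3c2, the mineralocorticoid receptor, was 3.98-fold higher, at 10.11, 10.39, 10.39, 10.34 and 10.18 in the hippocampus, against 8.33, 8.25, 8.20, 8.38 and 8.29 in the frontal cortex (adjusted p = 2.84e-10). The glucocorticoid receptor gene Nr3c1 lay the other way on 1 of its 2 probe sets (log2 difference -0.35, adjusted p = 7.13e-06, against 0.06 on the other), and its call ended on the deposited scale. Zbtb20, a repressor needed for hippocampal identity, was 3.05-fold higher, and all 6 of its probe sets were called. Nr2f2, an orphan receptor of caudal pallium, was 3.01-fold higher. Mef2c, an activity-dependent factor that restrains synapse number, was 4.44-fold lower, at 11.07 in the hippocampus of rat 1 and 10.18 to 10.36 in the others, against 12.48 to 12.62 in the frontal cortex. Meis2 was 3.31-fold lower. Of 20 tested markers of neurogenesis and immature neurons, 5 were called higher and 5 lower, with Stmn1, a microtubule regulator, lower (log2 difference -1.28) and Fabp7, a fatty acid binding protein of radial glia, higher (0.86).

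Promoters are shown for 5 of these and the following genes, because each holds a match to a motif pattern searched here. Sequences of 250 bases before to 50 after the start of the gene came from RefSeq (build GRCr8) and were found for 8556 of 10216 genes tested, 139 of the 191 at least 2-fold higher and 166 of the 210 at least 2-fold lower. Capitals mark matches, on either strand, to AP-1 (TGANTCA), the glucocorticoid response element (GNACA and TGTNC with any 3 bases between), EGR (GCGTGGGCG), the CRE (TGACGTCA), MEF2 (CTA and TAG with any 4 bases between) and an E-box of the NeuroD type (CAGATG), and no match overlapped another. Nts (chr7:39460839-39461138, minus strand) and Neurod1 (chr3:84770405-84770704, minus strand) were higher in the hippocampus, and Sst (chr11:90461296-90461595, plus strand), Homer1 (chr2:26278762-26279061, plus strand) and Rgs4 (chr13:84475835-84476134, minus strand) were lower.
Nts: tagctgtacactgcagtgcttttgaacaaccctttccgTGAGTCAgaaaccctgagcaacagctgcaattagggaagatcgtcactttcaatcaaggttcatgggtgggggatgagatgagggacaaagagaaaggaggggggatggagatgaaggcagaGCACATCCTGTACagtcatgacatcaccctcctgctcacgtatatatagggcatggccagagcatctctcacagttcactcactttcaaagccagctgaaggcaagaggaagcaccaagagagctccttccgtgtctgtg
Neurod1: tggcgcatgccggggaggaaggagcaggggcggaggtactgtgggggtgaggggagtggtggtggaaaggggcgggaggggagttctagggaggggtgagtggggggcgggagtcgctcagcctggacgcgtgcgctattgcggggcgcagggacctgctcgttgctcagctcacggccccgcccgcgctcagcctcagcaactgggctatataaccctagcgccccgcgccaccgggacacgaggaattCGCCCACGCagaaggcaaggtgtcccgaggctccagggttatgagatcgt
Sst: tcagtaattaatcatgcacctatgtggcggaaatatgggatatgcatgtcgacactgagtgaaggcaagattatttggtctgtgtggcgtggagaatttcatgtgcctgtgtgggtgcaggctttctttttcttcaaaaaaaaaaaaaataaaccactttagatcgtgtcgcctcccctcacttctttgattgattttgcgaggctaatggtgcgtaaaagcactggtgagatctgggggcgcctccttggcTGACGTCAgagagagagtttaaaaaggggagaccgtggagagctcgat
Homer1: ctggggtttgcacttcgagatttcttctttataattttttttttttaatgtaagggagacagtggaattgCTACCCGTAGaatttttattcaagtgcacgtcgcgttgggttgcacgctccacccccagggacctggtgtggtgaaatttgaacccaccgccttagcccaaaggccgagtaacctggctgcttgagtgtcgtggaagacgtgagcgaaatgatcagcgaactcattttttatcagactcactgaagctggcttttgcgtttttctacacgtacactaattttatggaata
Rgs4: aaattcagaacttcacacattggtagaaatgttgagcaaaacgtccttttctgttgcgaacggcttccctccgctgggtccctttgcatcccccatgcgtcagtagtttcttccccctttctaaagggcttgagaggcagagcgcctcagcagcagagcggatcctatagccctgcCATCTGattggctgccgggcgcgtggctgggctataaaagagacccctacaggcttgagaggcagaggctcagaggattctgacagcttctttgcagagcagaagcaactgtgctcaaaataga
Nts holds an AP-1 and a glucocorticoid response element match, Neurod1 an EGR match, Sst a CRE and Rgs4 a CAGATG E-box. Homer1 matches only the loose MEF2 letters searched. Its 4 bases between CTA and TAG are CCCG, whereas a MEF2 site holds A or T there.

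Shares of promoters with each motif follow for the strongly differing genes and for all genes. The CRE was in 2.16% of promoters of genes at least 2-fold higher and 1.81% of those at least 2-fold lower in the hippocampus, against 3.31% of all promoters of this length. AP-1 was in 5.04% and 2.41%, against 4.48%, and EGR in 2.16% and 0.602%, against 1.16%. The loose MEF2 letters, with any 4 bases between, were in 2.88% and 3.01%, against 2.71%, and these shares include matches that are not MEF2 sites. The CAGATG E-box was in 11.5% of the higher and 15.7% of the lower set, against 10.6%. The glucocorticoid response element was in 0.719% and 0.602%, against 0.199%, which is 1 gene in each set. These are counts of letters, with no test and no measure of binding.

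Serotonin receptors split by subtype. Of 7 tested of 14 listed, Htr5b, Htr1a and Htr4 were called higher and Htr2a lower in the hippocampus. Htr1a, an inhibitory receptor on pyramidal and granule cells, read 8.41, 8.62, 8.47, 8.63 and 8.49 in the hippocampus, against 6.08, 5.67, 6.15, 6.23 and 6.0 in the frontal cortex. Htr2a, the excitatory receptor that risperidone blocks, read 6.17, 5.72, 5.18, 5.96 and 5.61 in the hippocampus, against 8.71, 8.56, 8.70, 8.74 and 8.89 in the frontal cortex. The Gs-coupled receptor Htr4 was 4.23-fold higher, at 6.85 to 7.23 against 4.91 to 5.09. Htr2c was not called (log2 difference 0.58, adjusted p = 0.0553) and was higher in 4 of 5 rats, and without rat 3 it was called (0.88, adjusted p = 0.00174). It was also called with a variance trend (adjusted p = 0.045), in the fit of all 45 arrays (adjusted p = 0.0316), on the deposited scale (adjusted p = 0.00883) and as the mean of its probe sets (adjusted p = 0.0365). Htr5a lay lower by less than 1.2-fold (log2 difference -0.26, adjusted p = 0.00428), and it passed 1.2-fold and was called without rat 1, 2 or 4 in turn, with median centring and with cyclic loess. Without rat 1, 2 receptors were lower.

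Of 7 tested dopamine and adrenergic receptors, 2 were called higher and 4 lower in the hippocampus. Adra1b read 5.88, 5.33, 5.75, 5.49 and 5.79 in the hippocampus, against 8.44, 8.52, 8.57, 8.48 and 8.56 in the frontal cortex (adjusted p = 2.83e-10). The alpha-2A receptor Adra2a was 1.75-fold lower with overlapping groups, at 7.34 in the hippocampus of rat 1 and 5.80 to 6.62 in the others, against 7.23 to 7.50. Adra1d (1.39-fold) and Adra2c (1.4-fold) were higher, and Adrb1 was 1.35-fold lower. The call of Drd1 (log2 difference -0.72, adjusted p = 0.0157) ended without rat 3 or rat 4 and on the deposited scale, where that of Adrb1 ended too. Among acetylcholine receptors, 2 of 6 tested were called higher and 2 lower. Chrna4, a nicotinic subunit, was 2.86-fold lower. Muscarinic receptors went both ways, with Chrm4 lower (log2 difference -0.35) and Chrm5 and Chrm1 1.59 and 1.35-fold higher.

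GABA-A receptors differed in subunits. Of 8 tested of 16 listed, 3 were called higher and 3 lower in the hippocampus (median 0.03). Gabra5, the subunit of extrasynaptic receptors on hippocampal pyramidal neurons, read 11.18, 11.28, 11.29, 11.35 and 11.12 in the hippocampus, against 10.11, 10.09, 10.25, 10.13 and 9.99 in the frontal cortex (2.19-fold, adjusted p = 5.52e-09). Gabra2, of synapses on the axon initial segment, and Gabrb1 were 1.82 and 1.35-fold higher. Gabra3 was 2.13-fold lower, Gabrd, the delta subunit of tonic inhibition, 1.88-fold lower and Gabrb2 1.83-fold lower, and none of these groups overlapped.

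Of 13 tested ionotropic glutamate receptor subunits of 18 listed, 7 were called higher and 2 lower (median 0.37). Gria1, the AMPA subunit inserted during potentiation, was 3.20-fold higher, at 10, 10.49, 10.42, 10.57 and 10.54 in the hippocampus, against 8.74, 8.71, 8.62, 8.92 and 8.65 in the frontal cortex (adjusted p = 3.35e-08). Gria2, which blocks calcium entry, was 1.38-fold higher. Gria3 was 1.69-fold lower, at 10.88 to 10.96 in the hippocampus against 11.65 to 11.70. Gria4 was 1.38-fold lower, with 2 of 3 probe sets called. Its call ended on the deposited scale and as the mean of its probe sets (log2 difference -0.26, below 1.2-fold). Grin2a was 1.75-fold higher on the probe set used, and of its 3 probe sets 2 were called higher and 1 lower (log2 difference from -0.54 to 1.47). Of 7 tested metabotropic glutamate and GABA-B receptors, 1 was called higher and 2 lower (3 lower without rat 1), and Gabbr2, a GABA-B subunit, had a log2 difference of -0.53. Grin2b (1.38-fold) and Grik2 (1.29-fold) were higher, and Grin1, the obligatory NMDA subunit, differed by less than 1.2-fold (log2 difference 0.24, adjusted p = 1.67e-04). Slc17a7, the vesicular glutamate transporter VGLUT1, was the only one of 5 tested vesicular transporters called, 1.34-fold higher, and its call ended in the fit of all 45 arrays.

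**Figure D3:**
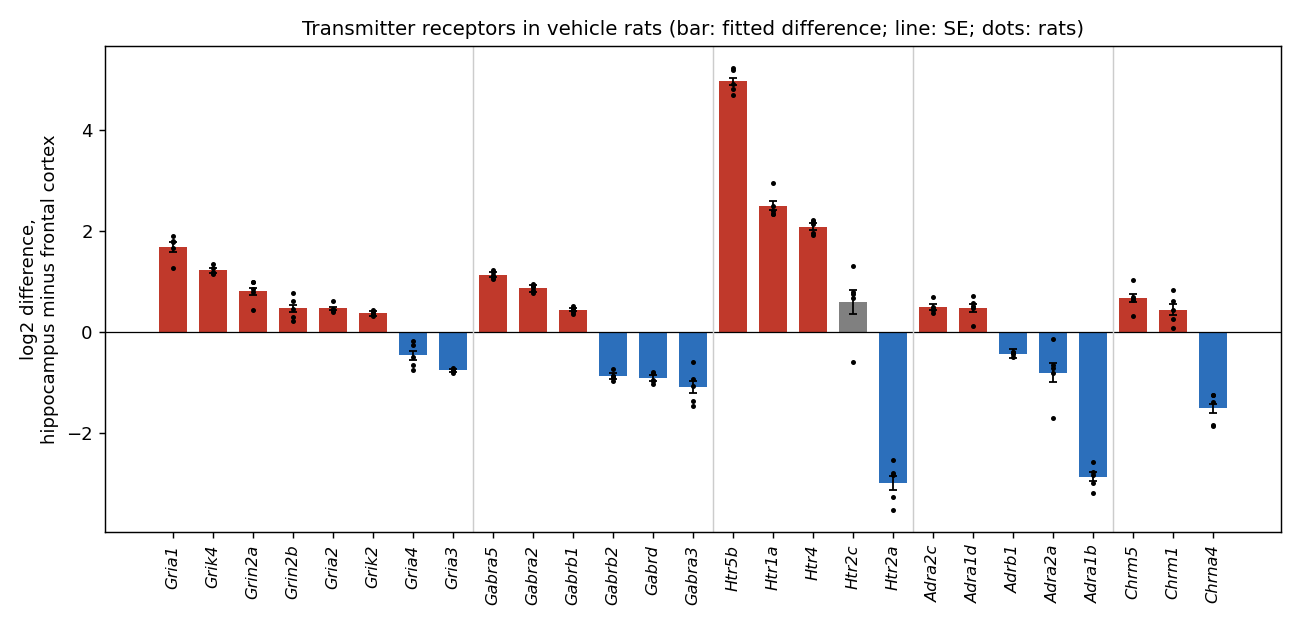
Log2 difference of the hippocampus over the frontal cortex (y axis) for 27 transmitter receptors in vehicle rats, with glutamate, GABA-A, serotonin, adrenergic and acetylcholine receptors from left to right, bars for the fitted difference, lines for its standard error and dots for the 5 rats. Red bars were called higher, blue bars lower and the gray bar, Htr2c, was not called, and Htr5b (4.96) and Htr2a (-2.99) mark the ends of the serotonin group. The 27 are a chosen part of the receptors tested. Those not drawn include Grin1 and Htr5a, which were not called, and Chrm4, which was called lower.

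Interneuron peptides were lower in the hippocampus, while the GABA synthesis genes were not called. Of 18 tested of 28 listed interneuron genes, 2 were called higher and 10 lower (median -0.41). Sst, the somatostatin gene of dendrite-targeting cells, read 10.69, 10.07, 10.37, 10.40 and 9.87 in the hippocampus, against 11.26, 10.74, 11.28, 11.23 and 11.05 in the frontal cortex (1.78-fold lower, adjusted p = 1.36e-04). Npy was 1.68-fold lower, at 9.32 to 10.05 against 10.21 to 10.68. Pvalb, the parvalbumin gene of fast-spiking cells, was 1.55-fold lower with overlapping groups (adjusted p = 2.69e-04), and its call ended in the fit of all 45 arrays (adjusted p = 0.0743). Crh, the corticotropin-releasing hormone gene, was 4.00-fold lower, Vip 2.85-fold and Cck, which principal neurons also express, 2.14-fold lower. Ndnf, of neurogliaform cells, was 1.78-fold higher. Gad1 averaged 11.55 in the hippocampus and 11.65 in the frontal cortex (adjusted p = 0.382), and Gad2 averaged 8.63 and 8.37 (adjusted p = 0.0711). Gad2 was called higher without rat 1 (log2 difference 0.34, adjusted p = 0.0274) and on the deposited scale (log2 difference 0.51, adjusted p = 0.00105).

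Among 26 tested neuropeptides and their receptors, 8 were called higher and 10 lower. After Nts, Nmb, which encodes neuromedin B, was 3.13-fold higher, at 7.31 to 7.99 against 5.85 to 6.01. Tacr3, the neurokinin B receptor, was 3.73-fold lower. Of 21 tested neurotrophins and growth factor receptors, 5 were called higher and 6 lower. Ntf3 read 7.83, 8.37, 8.24, 7.97 and 7.81 in the hippocampus, against 5.60, 5.25, 5.45, 5.50 and 5.32 in the frontal cortex. Bdnf was 1.75-fold higher (9.55 to 9.86 against 8.68 to 9.06) and Fgfr1 2.46-fold higher, while Gfra2, the neurturin receptor, was 4.58-fold lower.

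Of 41 tested cadherins, ephrins, semaphorins and plexins, 18 were called higher and 12 lower. The semaphorin receptors Nrp2 and Nrp1 were 5.18 and 3.11-fold higher, with Nrp2 at 9.32 to 9.77 in the hippocampus against 7.08 to 7.30 in the frontal cortex. Efnb3, an ephrin, was 2.81-fold higher, and Ephb6, a kinase-dead Eph receptor, was 1.92-fold lower. Of 31 tested Wnt and TGF-beta family genes, 8 were called higher and 8 lower. Wnt4 read 9.02, 9.34, 9.12, 9.33 and 9.35 in the hippocampus, against 6.74, 6.67, 6.72, 6.48 and 6.66 in the frontal cortex. Of the secreted bone morphogenetic protein antagonists, Chrd was 2.84-fold higher and Nog 2.80-fold lower. Inhba, a subunit of activin, was 2.49-fold lower on the probe set used (adjusted p = 5.21e-08) and differed by 0.10 on the other.

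Of 40 tested calcium and plasticity kinase genes, 12 were called higher and 13 lower. Hpca, the calcium sensor hippocalcin, was 3.15-fold higher, at 12.37 to 12.77 in the hippocampus against 10.84 to 11.01, Ryr3, a calcium release channel, was 3.22-fold and Prkce, a protein kinase C, 1.97-fold higher, while the phosphodiesterase Pde4b was 1.58-fold lower. Of 28 tested voltage-gated potassium channel genes, 8 were called higher and 12 lower. The modifier subunits Kcns1 and Kcnv1 were 5.15 and 2.61-fold lower and Kcng2 was 2.33-fold higher, and Kcnh1 was 1.86-fold lower.

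Of 33 tested immediate early and activity-regulated genes, 17 were called lower and 6 higher in the hippocampus (median -0.27), beside 15.1% and 14.5% of all genes. Homer1, a scaffold whose short form is induced by activity, was 1.92-fold lower on the probe set used, at 10.18 to 10.32 in the hippocampus against 11.10 to 11.25, and all 5 of its probe sets were called lower. Fos read 8.65, 7.36, 7.74, 7.43 and 7.97 in the hippocampus, against 9.25, 8.75, 9.56, 8.96 and 9.57 in the frontal cortex (2.62-fold lower, adjusted p = 1.19e-04), and it was not called in risperidone rats. Egr2 (4.10-fold), Egr1 (2.09-fold) and the phosphatase gene Dusp14 (1.78-fold) were lower. Nr4a3, a nuclear receptor of the same class of genes, was 2.47-fold higher, at 10.07 to 10.28 against 8.73 to 9.01. Of 19 tested clock genes, 11 were called lower and 2 higher (median -0.27), among them Npas2 (2.46-fold lower), Hlf (1.94-fold lower), Rora (1.79-fold lower) and Csnk1e (1.48-fold lower). Fewer clock genes were called in the rats given a drug, 5 lower and 1 higher with haloperidol (median -0.18) and 7 lower and 1 higher with risperidone (median -0.17). The order and the time of day of dissection are not given in the sources used here, and their part in these values was not tested.

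**Figure D4:**
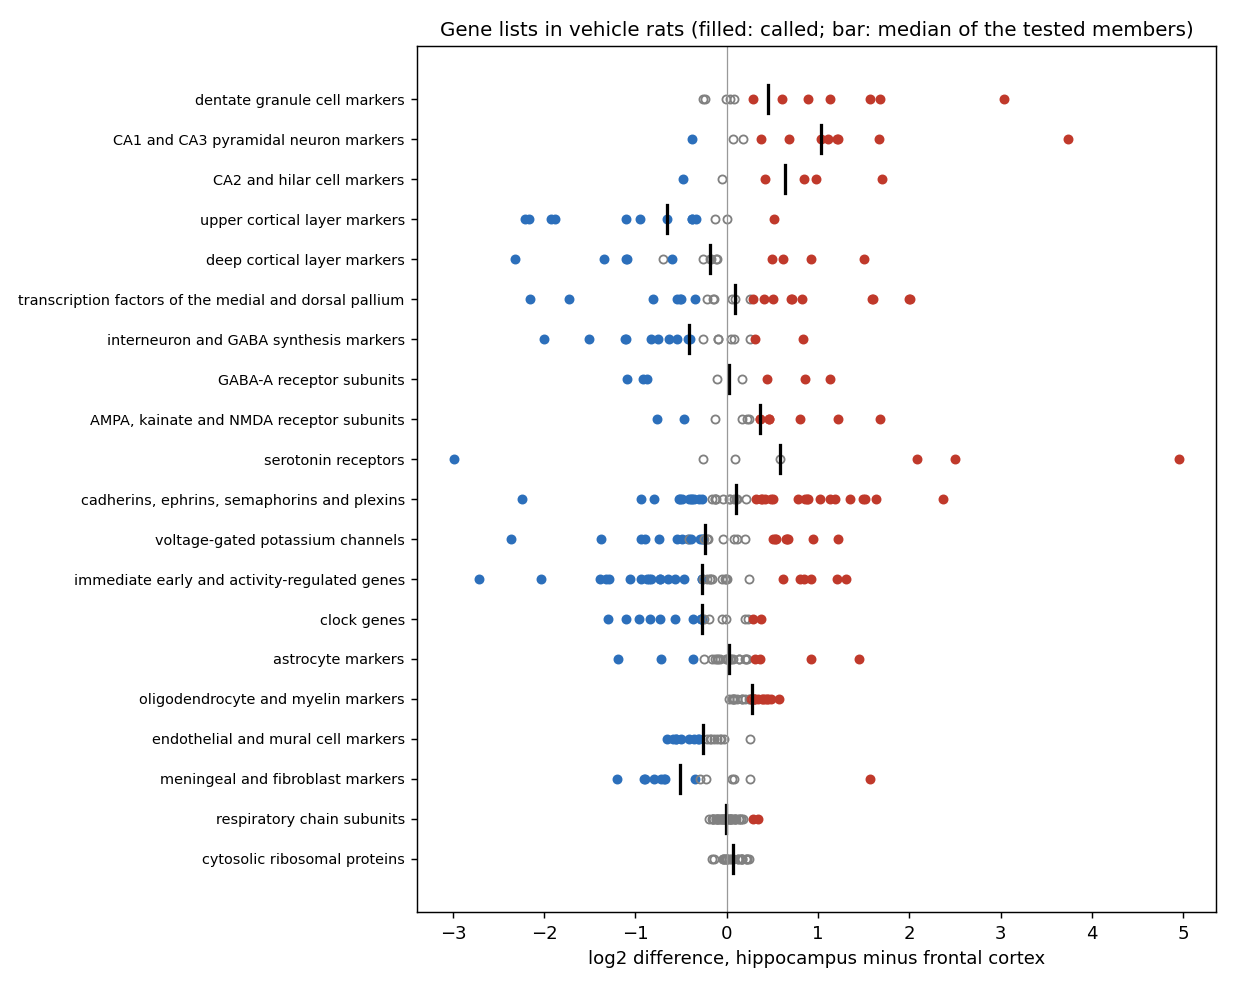
Log2 difference of the hippocampus over the frontal cortex (x axis) for the tested members of 20 gene lists (rows) in vehicle rats, filled red where called higher, filled blue where called lower and open where not called, with a black bar at the list's median. The medians are 1.03 for CA1 and CA3 markers and 0.45 for dentate granule cell markers, -0.65 for upper layer markers and -0.005 for respiratory chain subunits.

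Glial and vascular lists come next. Of 24 tested astrocyte markers, 4 were called higher and 3 lower (median 0.03), near the shares of all genes (14.5% and 15.1%). Gfap, the astrocyte intermediate filament, read 12.24, 12.45, 12.52, 12.28 and 12.41 in the hippocampus, against 10.81, 11.25, 10.61, 11.07 and 10.90 in the frontal cortex (2.73-fold, adjusted p = 1.80e-07), and Agt, angiotensinogen, was 1.89-fold higher. Hopx was 2.28-fold lower, and Glul, glutamine synthetase, 1.3-fold lower, a call that ended on the deposited scale. Of 26 tested oligodendrocyte and myelin genes, 12 were called higher (10 without rat 1) and none lower (median 0.28), with Apod (1.48-fold), Myrf (1.4-fold) and Qdpr (1.27-fold) among them. In haloperidol rats 2 genes of this list were called higher, and in risperidone rats 17. Of 18 tested endothelial and mural cell genes, 9 were called lower and none higher (median -0.26). Of 18 tested microglia and complement genes, 1 was called higher and 2 lower, and none higher and 4 lower without rat 1. Of these, Aif1 and P2ry12, a nucleotide receptor of resting microglia, were the lower pair, and both calls ended on the deposited scale. Of 4 tested ependymal markers, 2 were called higher. The summed intensity of the 27 oligodendrocyte and myelin genes on the array was 48606 to 64206 in the hippocampi and 38695 to 54711 in the frontal cortices.

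Markers of neighboring tissue varied between rats. The summed intensity of 18 choroid plexus markers was 2113 to 2856 in the hippocampi of rats 1 to 4 and 7674 in that of rat 5, against 2243 to 3015 in the frontal cortices. Ttr, transthyretin of the choroid plexus, read 6.87, 8.85, 6.94, 8.84 and 12.25 in the hippocampus, against 6.16, 8.66, 6.10, 6.99 and 6.39 in the frontal cortex, and was not called (adjusted p = 0.0642). Folr1, a folate receptor of the choroid plexus below the filter, read 5.57 to 6.25 in the hippocampi, highest in rat 5, and 4.66 to 5.04 in the frontal cortices. Kl was near the bottom of the scale, at 3.77 to 3.98 in the hippocampi and 3.63 to 3.89 in the frontal cortices. Of 14 tested meningeal and fibroblast markers, 8 were called lower and 1 higher in the hippocampus, with summed intensities over 22 markers of 4105 to 5818 in the hippocampi and 4400 to 9797 in the frontal cortices. Col3a1 and Pcolce, of collagen fibers, were 2.31 and 1.61-fold lower and Dcn, decorin, which some neurons also express, was 2.98-fold higher. In haloperidol rats 3 genes of this list were called lower and 2 higher (median -0.043), and in risperidone rats 5 lower and 2 higher (median -0.045), against a median of -0.51 in vehicle rats. Of 18 tested markers of striatal projection neurons, 10 were called lower and 4 higher, with sums over 21 markers of 5505 to 6668 in the hippocampi and 6326 to 7987 in the frontal cortices. Cdhr1, an olfactory bulb marker below the filter, read 4.57 to 5.37 in the hippocampi and 5.76 to 7.08 in the frontal cortices. Other bulb markers below the filter lay closer together, with means in the same order of 4.12 and 4.14 for Eomes and 4.88 and 5.17 for Th. Nmb, also on the olfactory bulb list, was higher in the hippocampus, as given above. Of 12 tested thalamus and habenula markers, 2 were called higher and 5 lower. Of 10 tested olfactory bulb markers, 3 were called in each direction (median -0.14). In haloperidol rats 1 of this list was called higher and 4 lower (median -0.25), and in risperidone rats none higher and 5 lower (median -0.76). Of 6 tested claustrum markers, 3 were higher and 2 lower. Of 5 tested choroid plexus markers, none was higher (1 without rat 1) and 1, Aqp1, was lower, a call that ended on the deposited scale. The part of adjoining tissue in the differences above was not tested.

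Few housekeeping genes were called. Of 40 tested respiratory chain subunits on the list, 2 were called higher, Ndufa5 (1.27-fold) and Ndufb10 (1.22-fold). None of them was called lower (1 without rat 1), and their median was -0.005. Cox6a2, a cytochrome c oxidase subunit outside the list, was called lower (log2 difference -1.83). Ndufb10 fell short of 1.2-fold with arrays centred on their median (log2 difference 0.22). None of 24 tested cytosolic ribosomal protein genes was called. Among 26 tested genes that the study discusses in the human brain or in rats, 6 were called higher and 6 lower. Beside Sst, Npy, Pvalb, Calb2 and Bdnf, the co-chaperone gene Bag3 was 2.52-fold higher (7.29 to 7.69 against 5.84 to 6.24), Cxcr4 1.61-fold, the lipid droplet gene Hilpda 1.56-fold and the chemokine gene Cxcl12 1.52-fold higher. Of 3 probe sets of Cxcl12, 2 were called higher and 1 lower. Snap25, a synaptic fusion protein, was 1.27-fold lower, at 13.26 to 13.29 in the hippocampus against 13.60 to 13.69, Stat3 was 1.26-fold and Cnot7 1.39-fold lower. The calls of Snap25, Stat3 and Cnot7 ended on the deposited scale, and Cnot7 was called in neither group of drug-treated rats.

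The striatum of the same vehicle rats gives a further level for each gene. With all 15 vehicle arrays on one scale, mean levels are given for the hippocampus, the frontal cortex and the striatum in turn, with no test. Htr5b averaged 8.38, 3.47 and 3.59, and Prox1 9.26, 6.26 and 6.64, so the striatum was near the frontal cortex. Nts averaged 9.62, 4.10 and 8.57, and Rerg 9.30, 6.20 and 9.16, so the striatum was near the hippocampus. Neurod6 averaged 11.53, 10.32 and 5.48, and Bhlhe22 11.90, 9.88 and 5.06, lowest in the striatum. Exph5 averaged 4.86, 8.73 and 3.83, and Bmper 4.33, 8.04 and 3.73, high in the frontal cortex of these 3 regions. Rgs4 averaged 9.26, 11.97 and 11.44, and Lamp5 9.62, 11.78 and 11.55, lowest in the hippocampus.

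The regional differences were measured again in rats given a drug. In haloperidol rats 13.2% of 10256 genes were called higher and 15.2% lower in the hippocampus, and in risperidone rats 12.2% and 12.9% of 10280 genes. Of the vehicle calls tested there, 1119 of 1463 higher and 1225 of 1539 lower genes were called the same way in haloperidol rats, and 984 of 1470 and 1051 of 1538 in risperidone rats. All 187 tested genes at least 2-fold higher, and 207 of 209 at least 2-fold lower, were called the same way in haloperidol rats, with Coch and Glt8d2 not called. In risperidone rats 187 of 189 and 207 of 209 were called the same way, with Nmb, Frzb, Coch and Fos not called. Arc, an activity-regulated synaptic gene, was the only gene called in opposite directions in haloperidol rats (log2 difference 0.45 in haloperidol rats and -0.47 in vehicle rats), and Acyp2, Serinc1 and Srsf7-ps4 were the only ones in risperidone rats (0.38, 0.26 and 0.28, against -0.46, -0.36 and -0.32 in vehicle rats). The vehicle calls of Arc (adjusted p up to 0.081), Coch (up to 0.112) and Acyp2 (up to 0.117) ended when rats 1, 2 or 5, rats 2, 4 or 5, and rats 1, 2, 4 or 5 in turn were left out. On the deposited scale the vehicle calls of Arc, Acyp2, Serinc1 and Srsf7-ps4 all ended (log2 difference -0.21, -0.22, -0.19 and -0.05). Nts differed by 5.43 in haloperidol, 5.10 in risperidone and 5.58 in vehicle rats, Htr5b by 4.73, 4.57 and 4.96, and Exph5 by -3.71, -3.32 and -3.91. Whether a regional difference itself changed with a drug was not tested.

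**Figure D5:**
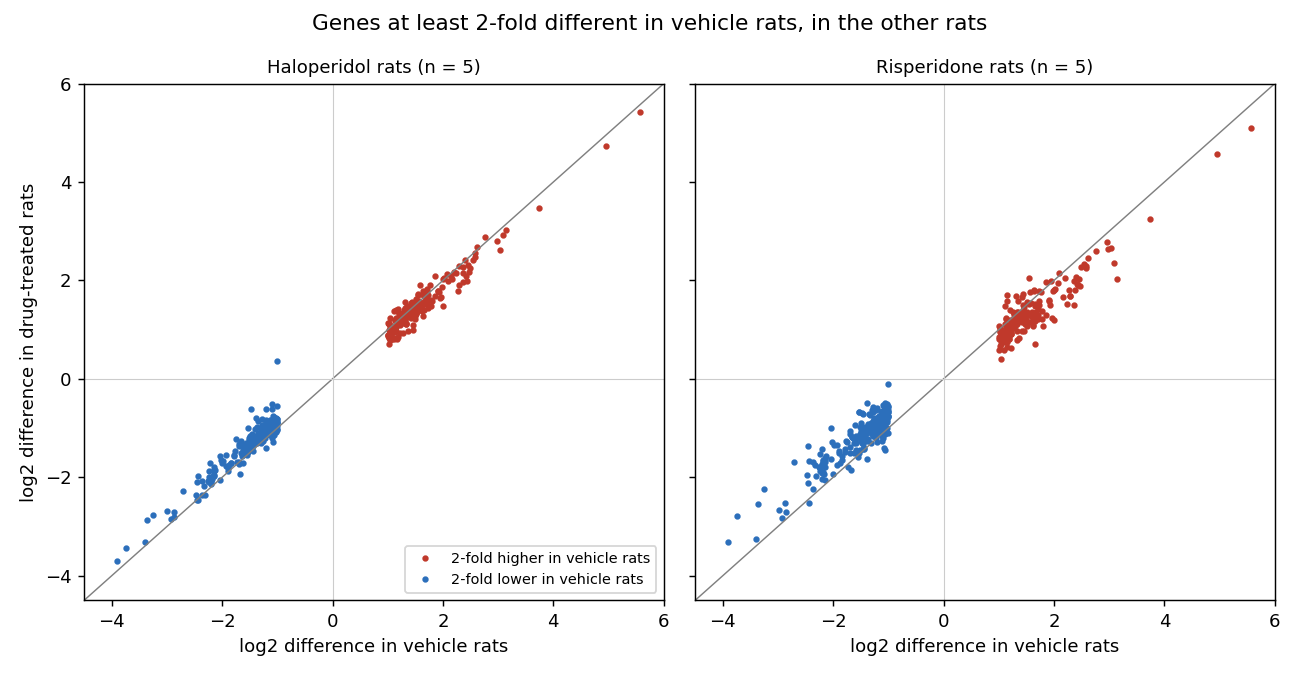
Log2 difference of the hippocampus over the frontal cortex in haloperidol rats (left) and risperidone rats (right) on the y axis, against that in vehicle rats on the x axis, for genes at least 2-fold higher (red) or lower (blue) in vehicle rats, with a line of equal differences. All red points lie above 0, and 1 blue point lies above 0, Coch in haloperidol rats at 0.36.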

How the data were processed

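RNA from hippocampus, frontal cortex and striatum of 15 rats was measured on 45 Affymetrix rat genome arrays. The authors deposited linear intensity values of 31099 probe sets, made with RMA in R 2.7.2 per the submitters' processing notes. Log2 of these values was taken, and the compared arrays were quantile normalized. The deposited medians differ by region, and region and the authors' processing run cannot be told apart. Probe sets with a mean below the 40th percentile (log2 5.91) were left out. Hippocampus was compared with frontal cortex in limma 3.58.1 (R 4.3.3), rats entering as random blocks (correlation 0.223) and Benjamini-Hochberg adjustment over all 18659 probe sets tested. Genes were called at 1.2-fold or more and an adjusted p under 0.05. The same fit was made in haloperidol and risperidone rats (correlations 0.242 and 0.378).

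The labels give the animal number of each array, which pairs the regions, and deviations from the group means correlated within every rat (r = 0.369, 0.352, 0.422, 0.562 and 0.33), although the hippocampus of rat 5 correlated almost as well with the frontal cortex of another rat (r = 0.329). Probe sets were named from the platform annotation: 20832 carried 1 gene symbol, 436 several and 9831 none, and only those with 1 were named. For each gene the tested probe set with the highest mean was used. The arrays give no read depth, and their number, 5 per group, limits the precision. The fit was tested on simulated data.

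The members and the 37 gene lists were chosen with earlier results of these data known. Named were the 15 most strongly higher and the 15 most strongly lower genes. The plan was also to name the 4 genes with the smallest p of each list, but for several lists some or all of these are left out. Further names came from members of the lists of hippocampal fields, cortical layers, GABA-A and glutamate receptors and neighboring tissue, and from genes the study discusses. Nr3c1, Nr2f2, Mef2c, Htr2c, Htr5a, Adra2a, Fos, Egr1, Egr2, Aif1, Arc, Coch, Frzb, Glt8d2, Acyp2, Serinc1 and Srsf7-ps4 were named after their values were seen. Cox6a2 was also named after its value was seen. The counts over named genes below leave out Cox6a2 and Chrm4. Alternatives were other normalizations, filters, blocks, a variance trend, a fit of all 45 arrays, the mean of all probe sets of a gene and leaving out each rat. Gene list counts without rat 1 were added after seeing the data.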

Additional observations from a re-analysis of the deposited data

Results flagged for a closer look

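In 338 groups of 5 arrays, formed by the named genes in each region, 19 had 1 array far from the other 4 (Dixon's test, ratio above 0.71), and chance gives about 1 in 20 groups. In the hippocampus of rat 1, Car10 (8.75, others 8.05 to 8.15), Mef2c (11.07, others 10.18 to 10.36), Cux2 (7.05, others 5.94 to 6.14), Gucy1a1 (8.68, others 7.99 to 8.19), Drd1 (6.90, others 5.91 to 6.05) and Ccn2 (8.73, others 6.63 to 7.12) were high. Ctxnd1 (8.73, others 9.11 to 9.22), Plk5 (7.48, others 8.01 to 8.11) and Gria1 (10, others 10.42 to 10.57) were low in the same array. In the hippocampus of rat 3, Nts was high (10.54, others 9.39 to 9.62) and Nr2f2 low (7.58, others 8.45 to 8.70).

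In the frontal cortex, rat 1 was low in Gabra2 (9.41, others 9.77 to 9.81), and rat 2 was low in Lamp5 (11.64, others 11.89 to 11.94) and Pvalb (9.89, others 10.28 to 10.40). Rat 3 was high in Rasgrf2 (8.79, others 8.53 to 8.54) and low in Hopx (10.27, others 10.48 to 10.54). Rat 4 was high in Col3a1 (7.35, others 6.49 to 6.71) and Snap25 (13.69, others 13.60 to 13.61), and rat 5 was low in Ccn2 (6.93, others 8.03 to 8.34).

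In 3 genes every rat of 1 treatment differed one way between the regions and every vehicle rat the other way, and the difference between treatments was not tested. They were Arc (log2 difference 0.45 in haloperidol rats, -0.47 in vehicle rats), Serinc1 (0.26 in risperidone rats, -0.36 in vehicle rats) and Srsf7-ps4 (0.28 in risperidone rats, -0.32 in vehicle rats).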

How the results depend on the processing

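On the deposited scale 8804 probe sets were called higher and 1256 lower in the hippocampus (87.5% higher), against 2972 and 3039 after quantile normalization (49.4%), and 589 and 228 reached 2-fold, against 358 and 385. On that scale 9695 and 995 were called in haloperidol rats, against 2853 and 3000, and 8489 and 913 in risperidone rats, against 2636 and 2507. With no filter 4503 and 4573 were called, and with the 60th percentile filter 1859 and 1945 (227 and 224 at 2-fold), since more or fewer probe sets were tested. With no replicate block 2923 and 2998 were called, and with the rat as a fixed replicate block 3020 and 3072, and of the named genes these changed the call of Arc (no block, adjusted p = 0.073), Coch (no block, adjusted p = 0.0773) and Ttr (fixed block, adjusted p = 0.0485). Leaving out each rat in turn gave 2908 to 3104 higher and 2979 to 3173 lower, with 344 to 379 and 362 to 416 at 2-fold. In haloperidol rats it gave 2760 to 2971 and 2946 to 3064, and in risperidone rats 2487 to 2776 and 2333 to 2619. Gad1, not called, turned to 0.125 on the deposited scale (adjusted p = 0.255) and 0.039 as the mean of all its probe sets (adjusted p = 0.834), and the cause was not tested. Over all named genes and alternatives, 2593 of 2658 values kept their direction and call, 2 turned, 38 lost a call and 25 gained one. Levels near the bottom of the scale limit the folds of genes such as Nts and Htr5b.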
